A study of Mus musculus with 3 samples.

Results

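The genes examined here mark the choice between the 2 supporting cell types of the gonad. They are 10 genes: Sox9, Sox8, Amh, Dhh, Dmrt1 and Ptgds of Sertoli cells, Foxl2 and Gng13 of pre-granulosa cells, and Nr5a1 and Gata4, which both fates use. They were taken by symbol, and every array probe annotated to them was used, which gave 15 probes of the 32664 that carry a single gene symbol and 10 of 19532 named genes. Whole gonads of male embryos (E14.5) were the source of the RNA, which was read on 1-colour Agilent arrays. The columns of the table were gonads labelled Nanos2-/- Stra8-/-, gonads labelled Nanos2-/- Stra8+/-, and Nanos2+/- Stra8+/- gonads as the control. The control thus carried a null allele of each gene too, and no wild-type gonad was analysed here. Each genotype had 1 column, whose title names replicates 1 and 2, so no replicate error could be had and no test was made. The number of arrays limits the precision. NANOS2 is an RNA-binding protein of fetal male germ cells and STRA8 a factor needed for entry into meiosis, so both genes act in germ cells, while the genes described here mainly mark somatic cells.

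In the XY gonad, SRY switches on Sox9 in supporting cell precursors, which then become Sertoli cells and enclose the germ cells in cords. In the XX gonad the same precursors become pre-granulosa cells, with WNT4 and RSPO1 signalling and the factor FOXL2. Sertoli cell factors and granulosa cell factors oppose each other, and in mice loss of Dmrt1 or of Foxl2 in the adult gonad can turn one cell type towards the other.

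The values are deposited ratios on a linear scale. Most probes lie near 1, so a ratio shows how a probe differs between columns and says nothing about how abundant its RNA is. A separate class of 7552 probes (18.3%) lay below 0.7 in all 3 columns, as did a negative control probe, at 0.454 in Nanos2-/- Stra8-/- gonads, 0.354 in Nanos2-/- Stra8+/- gonads and 0.352 in control gonads. None of the 15 probes belonged to that class. The tissue label cannot be checked further against these genes, because their ratios hold no level. Nanos2 had a ratio of 0.397 in Nanos2-/- Stra8-/- gonads and 0.364 in Nanos2-/- Stra8+/- gonads, against 87.2 in control gonads, the direction that the labels give. The single Stra8 probe had a ratio of 1.34 in Nanos2-/- Stra8-/- gonads, 1.13 in Nanos2-/- Stra8+/- gonads and 0.108 in control gonads. Its position relative to the deleted part of the gene is not known here, so it does not check the Stra8-/- label, and the genotype names below are those of the labels.

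Promoter windows were found for 5 of the 10 genes in the RefSeq-derived table of build GRCm38.p6, namely Sox8, Dhh, Ptgds, Foxl2 and Gng13. Those of the granulosa genes are shown, because Gng13 gave the largest difference from the control among the 15 probes and Foxl2 is the factor of that fate. Each run is the 250 bases before the gene's start, on the + strand, at chr17:25716922-25717171 for Gng13 (the first of 2 starts listed) and chr9:98955357-98955606 for Foxl2. Capitals mark a match to one of the searched motifs.
Gng13: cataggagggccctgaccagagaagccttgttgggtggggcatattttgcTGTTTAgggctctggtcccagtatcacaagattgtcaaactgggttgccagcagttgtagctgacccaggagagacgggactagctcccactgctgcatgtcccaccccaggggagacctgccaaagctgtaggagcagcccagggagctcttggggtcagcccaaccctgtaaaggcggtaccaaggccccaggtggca
Foxl2: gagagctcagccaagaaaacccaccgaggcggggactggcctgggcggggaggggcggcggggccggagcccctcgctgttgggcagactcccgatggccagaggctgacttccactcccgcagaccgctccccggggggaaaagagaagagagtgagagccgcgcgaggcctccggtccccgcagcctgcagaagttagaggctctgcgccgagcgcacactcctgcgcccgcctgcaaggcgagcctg
The motifs, searched on both strands, were CAAGGNCA for NR5A1, AGATA for GATA factors, AACAAT for SOX factors, TAAACA for forkhead factors and ACATTGT for DMRT1. The Gng13 window held 1 match, TAAACA on the opposite strand, which begins 200 bases before the start. Of all 32851 windows of this length, 12.0% hold that motif. The other 5 windows of these genes, the second Gng13 start included, held 0 matches to any of the motifs. Most windows lack each of them too: 5.53% of all windows hold the NR5A1 motif, 26.6% GATA, 9.42% SOX and 2.56% DMRT1. A match is only a run of letters, and its absence concerns these windows alone.

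**Figure D1:**
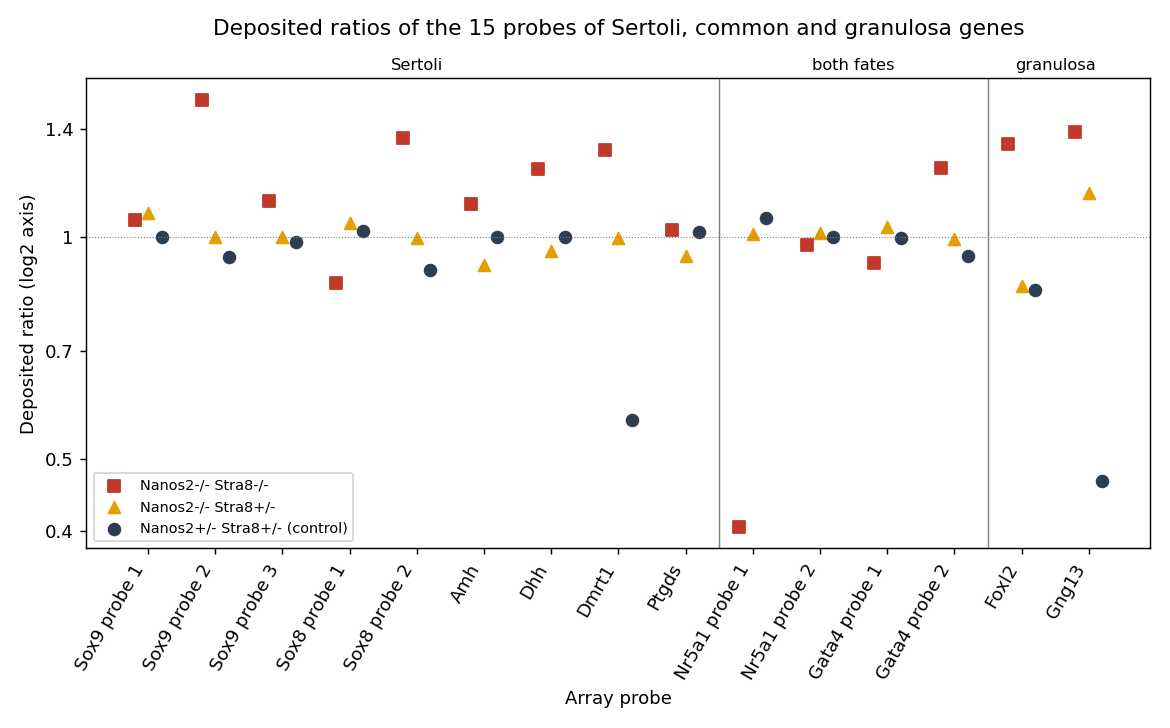
Deposited ratio (log2 axis) of each of the 15 probes in the Nanos2-/- Stra8-/- (red squares), Nanos2-/- Stra8+/- (orange triangles) and control (dark circles) columns, 1 value per column. Most points lie close to 1, while the control value is low for Dmrt1 (0.566) and Gng13 (0.467) and the Nanos2-/- Stra8-/- value is low for the first Nr5a1 probe (0.405).

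Sox9, the transcription factor that sets and keeps the Sertoli fate, differed little between the Nanos2-/- Stra8+/- and control columns by any of its 3 probes. The first probe had a ratio of 1.05 in Nanos2-/- Stra8-/- gonads, 1.08 in Nanos2-/- Stra8+/- gonads and 1.0 in control gonads. The second had 1.53, 1.0 and 0.938 in the same order of genotypes, and the third 1.12, 1.0 and 0.984. With loss of Nanos2 alone the log2 differences from the control were 0.11, 0.09 and 0.02, all under the median spread between probes of the same gene, an SD of 0.12 over 8511 genes. In Nanos2-/- Stra8-/- gonads they were 0.08, 0.71 and 0.18, so the second probe alone was 1.63-fold above the control. The range of 0.63 between these probes was reached or passed by 48.6% of the 2077 genes with as many probes.

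Sox8, a relative of Sox9 that acts beside it in Sertoli cells, gave 2 probes that went opposite ways in Nanos2-/- Stra8-/- gonads. The first had a ratio of 0.865 in Nanos2-/- Stra8-/- gonads, 1.04 in Nanos2-/- Stra8+/- gonads and 1.02 in control gonads. The second had 1.36 in Nanos2-/- Stra8-/- gonads, 0.996 in Nanos2-/- Stra8+/- gonads and 0.901 in control gonads. The log2 differences from the control were thus -0.23 and 0.59 with both genes lost, and 0.04 and 0.14 with Nanos2 alone lost. A range as wide as theirs, 0.83 in the comparison of Nanos2-/- Stra8-/- gonads with the control, occurred in 14.8% of the 5405 genes with 2 probes. No direction can be given for Sox8 from these 2 probes.

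The secreted products of Sertoli cells stayed within 1.5-fold of the control. Amh, the hormone that makes the Müllerian ducts regress, had a ratio of 1.11 in Nanos2-/- Stra8-/- gonads, 0.917 in Nanos2-/- Stra8+/- gonads and 1.0 in control gonads. Dhh, the hedgehog ligand that Sertoli cells send to Leydig and peritubular cells, had 1.23 in Nanos2-/- Stra8-/- gonads, 0.957 in Nanos2-/- Stra8+/- gonads and 1.0 in control gonads. Ptgds, the synthase of prostaglandin D2, had 1.02 in Nanos2-/- Stra8-/- gonads, 0.941 in Nanos2-/- Stra8+/- gonads and 1.01 in control gonads. For these 3 genes the lowest value was that of Nanos2-/- Stra8+/- gonads, with log2 differences from the control of -0.13, -0.06 and -0.11, and the highest that of Nanos2-/- Stra8-/- gonads. Their log2 differences between the Nanos2-/- Stra8-/- and Nanos2-/- Stra8+/- columns were 0.27, 0.37 and 0.12, where the median over all probes was 0.16. Each has 1 probe, so no second probe checks these values.

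Dmrt1, a transcription factor that keeps the Sertoli fate after birth in mice and is made by germ cells too, was the Sertoli gene with the largest differences from the control. Its probe had a ratio of 1.31 in Nanos2-/- Stra8-/- gonads, 0.996 in Nanos2-/- Stra8+/- gonads and 0.566 in control gonads. It was 2.32-fold higher in Nanos2-/- Stra8-/- gonads than in the control (log2 difference 1.21) and 1.76-fold higher in Nanos2-/- Stra8+/- gonads than in the control (0.82). Of all probes, 2.89% lay at least as far above 0 in the first of these comparisons and 3.68% in the second. With each difference read against the median of all probes, the values were 1.02 and 0.77. With values below the column median raised to it, which lifts the control value, the differences from the control were 0.48 and 0.08. In whole gonads more cells of a type and more RNA per cell cannot be told apart.

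Germ cell markers also differed between the columns, in both directions. Of 9 germ cell markers, 5 lay above 0 and 4 at or below it in each of the 2 comparisons with the control. Their medians were 0.24 in Nanos2-/- Stra8-/- gonads and 0.12 in Nanos2-/- Stra8+/- gonads. In that order of genotypes 68.3% and 58.8% of all genes lay above 0, with medians of 0.18 and 0.04. Most ratios lie near 1, so a sum of ratios, here and below, mainly follows the number of probes. For the 11 probes of the germ cell markers it was 11.3 in Nanos2-/- Stra8-/- gonads, 11.2 in Nanos2-/- Stra8+/- gonads and 10.8 in control gonads. None of them was listed at 0, as was so for all probes. Among them, Nanos3, an RNA-binding protein of early germ cells, had log2 differences from the control of 0.61 and 0.82 in that order of genotypes, and Dppa3, a germ cell and oocyte factor, had 0.68 and 0.38. Dnd1, a partner of NANOS2 in binding RNA, had -0.64 and -0.89, and Mael, a factor of transposon silencing, had -0.36 and -0.63. The part of germ cells in the Dmrt1 values was not tested.

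Nr5a1 encodes steroidogenic factor 1, which is needed to form the gonad and helps to turn on Sox9 and Amh, and which Leydig cells use as well. Its 2 probes disagreed in Nanos2-/- Stra8-/- gonads. The first, annotated to a different transcript record from the second, had a ratio of 0.405 in Nanos2-/- Stra8-/- gonads, 1.01 in Nanos2-/- Stra8+/- gonads and 1.06 in control gonads. The second had 0.974 in Nanos2-/- Stra8-/- gonads, 1.01 in Nanos2-/- Stra8+/- gonads and 1.0 in control gonads. The first probe was therefore 2.62-fold lower in Nanos2-/- Stra8-/- gonads than in the control and 2.49-fold lower than in Nanos2-/- Stra8+/- gonads, while the second had log2 differences of -0.04 and -0.06. The value of 0.405 lay below the 0.454 of the negative control in that column. The divisor of each probe is not known, so this does not place the value against background. The 2.62-fold and 2.49-fold differences may be only lower bounds. With the mean of both probes Nr5a1 did not reach 2-fold, at -0.71 and -0.69 in the 2 comparisons. A range as wide as the 1.35 between them occurred in 5.44% of the genes with 2 probes. With loss of Nanos2 alone both probes lay within 0.08 of 0.

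Leydig cell genes, several of which Nr5a1 is known to drive, are given beside it. Of 7 listed 5 were measured. In Nanos2-/- Stra8-/- gonads compared with the control 2 of them lay above 0, with a median of -0.26. With Nanos2 alone lost 2 lay above 0, with a median of -0.03. In that order 68.3% and 58.8% of all genes lay above 0, with medians of 0.18 and 0.04. The summed ratio of the 8 Leydig probes was 7.29 in Nanos2-/- Stra8-/- gonads, 7.84 in Nanos2-/- Stra8+/- gonads and 8.10 in control gonads, with none listed at 0. Cyp11a1, the enzyme that makes the first steroid from cholesterol, showed the same kind of split as Nr5a1, with probe differences of 0.21, 0.07 and -1.15 in Nanos2-/- Stra8-/- gonads compared with the control. Star, the cholesterol carrier of steroid synthesis, had -0.52 and -0.04, and Cyp17a1, the enzyme that leads to androgens, had -0.26. Cited1, a transcriptional co-activator, had 0.13. The part of Leydig cells in the Nr5a1 values was not tested.

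Gata4, a zinc-finger factor of the early gonad that acts with NR5A1 on Amh, lay near the control by both probes. The first had a ratio of 0.922 in Nanos2-/- Stra8-/- gonads, 1.03 in Nanos2-/- Stra8+/- gonads and 0.997 in control gonads. The second had 1.24, 0.994 and 0.941 in the same order of genotypes. Their log2 differences in Nanos2-/- Stra8-/- gonads compared with the control, -0.11 and 0.39, had opposite signs, as the probes of 44.6% of genes with 2 or more probes did. With loss of Nanos2 alone they were 0.05 and 0.08.

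**Figure D2:**
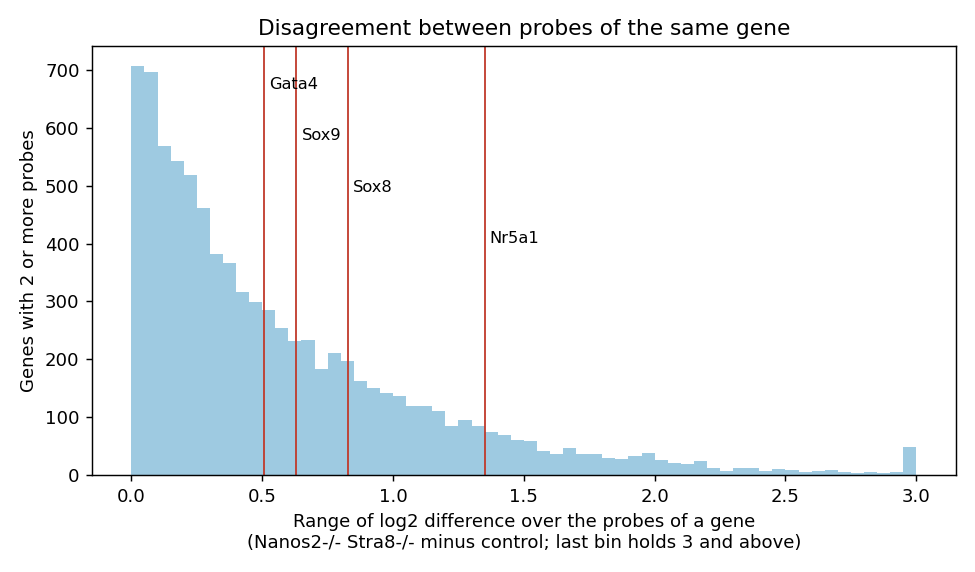
Histogram of the range of log2 difference over the probes of a gene, in Nanos2-/- Stra8-/- gonads minus the control, for 8511 genes with 2 or more probes. The red lines mark Gata4 at 0.51, Sox9 at 0.63, Sox8 at 0.83 and Nr5a1 at 1.35, all above the median range of 0.40.

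Foxl2, the forkhead factor of granulosa cells, was level between the Nanos2-/- Stra8+/- and control columns and higher in Nanos2-/- Stra8-/- gonads. It has 1 probe, so no second probe checks these values. Its ratio was 1.33 in Nanos2-/- Stra8-/- gonads, 0.858 in Nanos2-/- Stra8+/- gonads and 0.848 in control gonads. It was 1.57-fold higher in Nanos2-/- Stra8-/- gonads than in the control and 1.56-fold higher than in Nanos2-/- Stra8+/- gonads, sizes that 10.5% and 6.15% of all probes reached or passed upward. Against the medians of all probes these log2 differences were 0.47 and 0.48. The log2 difference with Nanos2 alone lost was 0.02, and -0.11 after quantile normalization.

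Gng13, a G protein gamma subunit known from taste and olfactory cells and used as an ovarian marker in fetal mouse gonads, was high in both columns without Nanos2. Its probe had a ratio of 1.39 in Nanos2-/- Stra8-/- gonads, 1.15 in Nanos2-/- Stra8+/- gonads and 0.467 in control gonads. It was 2.97-fold higher in Nanos2-/- Stra8-/- gonads than in the control and 2.45-fold higher in Nanos2-/- Stra8+/- gonads than in the control, comparisons that share the control value. Of all probes, 1.52% and 1.44% lay at least as far above 0. Between the columns without Nanos2 the log2 difference was 0.27, or 0.11 above the median of all probes, and 0.02 after quantile normalization. The control value of 0.467 lay above the 0.352 of the negative control in that column. Whether it lay above background is not known, so the folds from the control may be only lower bounds.

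**Figure D3:**
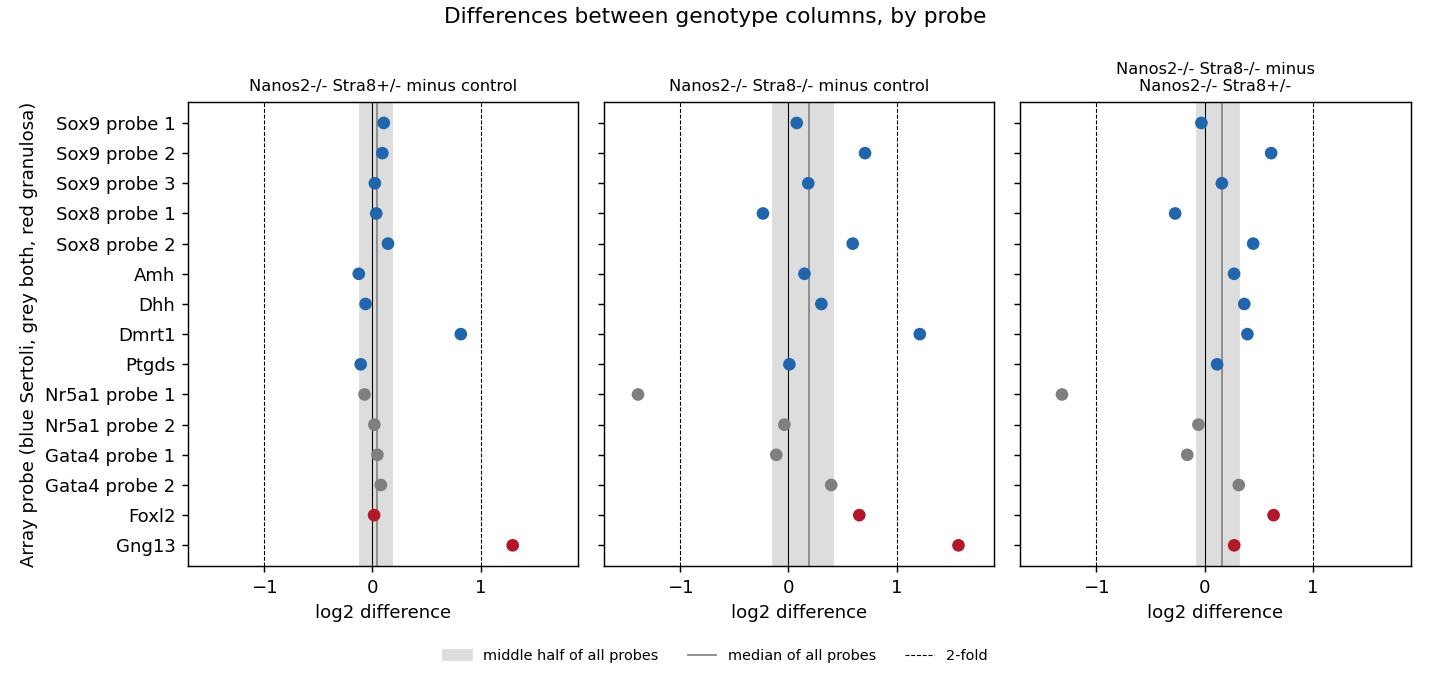
Log2 difference of each of the 15 probes in 3 comparisons, with the interquartile range of all probes in grey, their median as a grey line and 2-fold as dashed lines. Only Gng13 lies beyond 2-fold in the left panel, Gng13, Dmrt1 and the first Nr5a1 probe do in the middle panel, and the first Nr5a1 probe alone does in the right panel.

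Counted over probes, most of these genes lay near the control with Nanos2 alone lost. A difference of 2-fold or more was found for 1 of the 15 probes, Gng13, where 5.6% of all probes reached that size in either direction. The other 14 lay between -0.13 and 0.82, and the median of the 15 was 0.04, as against 0.05 for all 41174 probes. At 1.5-fold, 2 of the 15 probes were higher (Gng13 and Dmrt1) and 0 lower, where 13.1% of all probes passed that size. The 9 Sertoli probes had a median of 0.04, with 6 above 0, and the 4 probes of Nr5a1 and Gata4 had 0.03. By the mean over probes, 3 of the 6 Sertoli genes lay above 0, and Gata4 did but Nr5a1 did not, beside 58.8% of all genes.

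In Nanos2-/- Stra8-/- gonads compared with the control, 3 of the 15 probes passed 2-fold, where 8.99% of all probes did so in either direction. They were Gng13 and Dmrt1, higher, and the first Nr5a1 probe, lower. At 1.5-fold 5 were higher and 1 lower, the second probes of Sox9 and Sox8 and the Foxl2 probe being added, where 22.8% of all probes passed. The median of the 15 probes was 0.18, beside 0.19 for all probes, and became 0.04 after quantile normalization. The Sertoli probes had a median of 0.18 with 8 of 9 above 0, and the probes of Nr5a1 and Gata4 had -0.07 with 1 of 4 above 0. By the mean over probes, 6 of the 6 Sertoli genes lay above 0, and Gata4 did but Nr5a1 did not, beside 68.3% of all genes.

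Between the Nanos2-/- Stra8-/- and Nanos2-/- Stra8+/- columns, 1 of the 15 probes passed 2-fold, the first Nr5a1 probe, which was lower, where 5.22% of all probes passed in either direction. At 1.5-fold the second Sox9 probe and Foxl2 were higher as well, and 14.4% of all probes passed. The median of the 15 probes was 0.27, and that of all probes 0.16, and the first became 0.10 after quantile normalization. The Nanos2-/- Stra8-/- column held the highest ratio for 10 of the 15 probes, as it did for 57.3% of all probes, and control gonads had the lowest for 8, as for 51.0% of all probes.

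Other genes of Sertoli cells were taken from a list of 24, all of them measured, with 1 value per gene as the mean over its probes. None was 2-fold or more from the control by this mean in either column, where 5.47% of all genes were so with Nanos2 alone lost and 7.05% in Nanos2-/- Stra8-/- gonads. Their medians were 0.09 in Nanos2-/- Stra8-/- gonads and 0.03 in Nanos2-/- Stra8+/- gonads, against 0.18 and 0.04 for all genes. Of their 37 probes 1 passed 2-fold in Nanos2-/- Stra8-/- gonads, where 8.99% of all probes did. It was the second of Kitl, the ligand of the germ cell receptor KIT, at -1.47, while the first had 0.57. Cbln4, a secreted protein of early Sertoli cells, had a ratio of 1.17 in Nanos2-/- Stra8-/- gonads, 0.664 in Nanos2-/- Stra8+/- gonads and 1.12 in control gonads, so it was low in 1 column only. Gata1, a factor of Sertoli and red blood cells, had log2 differences from the control of 0.65 in Nanos2-/- Stra8-/- gonads and 0.42 in Nanos2-/- Stra8+/- gonads, and Cldn11, a tight junction protein of Sertoli cells, 0.61 and 0.40. Sry, the switch that precedes Sox9 and is known to be transient, had ratios of 0.325 in Nanos2-/- Stra8-/- gonads, 0.311 in Nanos2-/- Stra8+/- gonads and 0.230 in control gonads, in the low class that holds the negative control.

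Of 20 other genes of the granulosa side, 19 were measured, and 1 of them, Kitl, which is named here because its probe values were seen, is also on the list of other Sertoli genes. In Nanos2-/- Stra8-/- gonads 2 were 2-fold or more above the control and 0 below, where 7.05% of all genes differed by that size. With Nanos2 alone lost 1 was above and 0 below, where 5.47% of all genes differed by that size. The medians, 0.09 in both comparisons, stood beside 0.18 and 0.04 for all genes. Rspo1, the secreted WNT agonist of the fetal ovary, had a ratio of 1.17 in Nanos2-/- Stra8-/- gonads, 0.998 in Nanos2-/- Stra8+/- gonads and 0.544 in control gonads. That is the same order as Gng13 and Dmrt1. Over all probes the Nanos2-/- Stra8-/- column was highest for 57.3% and the control lowest for 51.0%. The share of probes with both at once was not computed. Msx1, a homeobox factor, had probe differences from the control of 1.99 and 0.56 in Nanos2-/- Stra8-/- gonads and of 1.76 and 0.36 in Nanos2-/- Stra8+/- gonads. Its first probe had 0.323 in control gonads, below the ratio of the negative control. Whether that value lay above background is not known, so 1.99 and 1.76 may be only lower bounds. Axin2, a target of WNT signalling, had 0.86 and 0.23 in the same order of genotypes, and Irx3, an Iroquois factor of pre-granulosa cells, had -0.31 and -0.78. Markers of the mesonephros, the tissue that adjoins the gonad, are given beside these values: of 5 measured, Lhx1, a homeobox factor of the nephric duct, alone was 2-fold or more above the control in Nanos2-/- Stra8-/- gonads and Lhx1 and Cdh16, a kidney cadherin, in Nanos2-/- Stra8+/- gonads. Pax8, a paired box factor, had mean differences of -0.35 in Nanos2-/- Stra8-/- gonads and -0.46 in Nanos2-/- Stra8+/- gonads. Its first probe had -0.86 and -0.74 in that order, and its second, of the low class, 0.16 and -0.19. Emx2, which the gonad precursor list holds too, had mean differences of 0.40 and 0.20. Over 8 mesonephros probes the summed ratio was 8.17 in Nanos2-/- Stra8-/- gonads, 9.04 in Nanos2-/- Stra8+/- gonads and 6.63 in control gonads. None was listed at 0, and the part of the mesonephros in the granulosa values was not tested.

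Genes of the common gonad precursor, 13 of 15 measured, had medians of 0.27 in Nanos2-/- Stra8-/- gonads and 0.17 in Nanos2-/- Stra8+/- gonads compared with the control, beside 0.18 and 0.04 for all genes. None was at 2-fold, where 7.05% and 5.47% of all genes were. Nr0b1, a nuclear receptor that antagonises NR5A1, had a ratio of 1.48 in Nanos2-/- Stra8-/- gonads, 0.999 in Nanos2-/- Stra8+/- gonads and 0.798 in control gonads. Six4, a homeobox factor that acts ahead of Nr5a1 in the gonad, had 0.999 in Nanos2-/- Stra8-/- gonads, 1.20 in Nanos2-/- Stra8+/- gonads and 0.645 in control gonads. Emx2 and Tcf21, both factors of the early gonad, had log2 differences of 0.40 and 0.52 in Nanos2-/- Stra8-/- gonads compared with the control.

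The genes that receive or follow the signals of Sertoli cells were taken from a list of 20 for the DHH, AMH and prostaglandin D2 pathways, of which 18 were measured. In Nanos2-/- Stra8-/- gonads 1 was 2-fold or more above the control and 0 below, and with Nanos2 alone lost 0 were, where 7.05% and 5.47% of all genes differed by that size. Medians were 0.23 in Nanos2-/- Stra8-/- gonads and 0.16 in Nanos2-/- Stra8+/- gonads, beside 0.18 and 0.04 for all genes. The gene at 2-fold was Boc, a hedgehog co-receptor, which rested on 1 of 3 probes, with differences of 2.82, 0.11 and 0.49, the last from a probe of the low class. The first probe had 0.265 in control gonads, below the ratio of the negative control. Whether that value lay above background is not known, so 2.82 may be only a lower bound. Gas1, another co-receptor, had 0.71, and Bmpr1a, a type I receptor used by AMH, had probe differences of 0.68 and 0.76 in that comparison. Ptgs2, which makes the precursor of prostaglandin D2, had a probe at 1.21 in Nanos2-/- Stra8-/- gonads, 0.315 in Nanos2-/- Stra8+/- gonads and 0.933 in control gonads. The value of 0.315 lay below the ratio of the negative control, and whether it lay above background is not known. The second probe lay in the low class throughout.

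**Figure D4:**
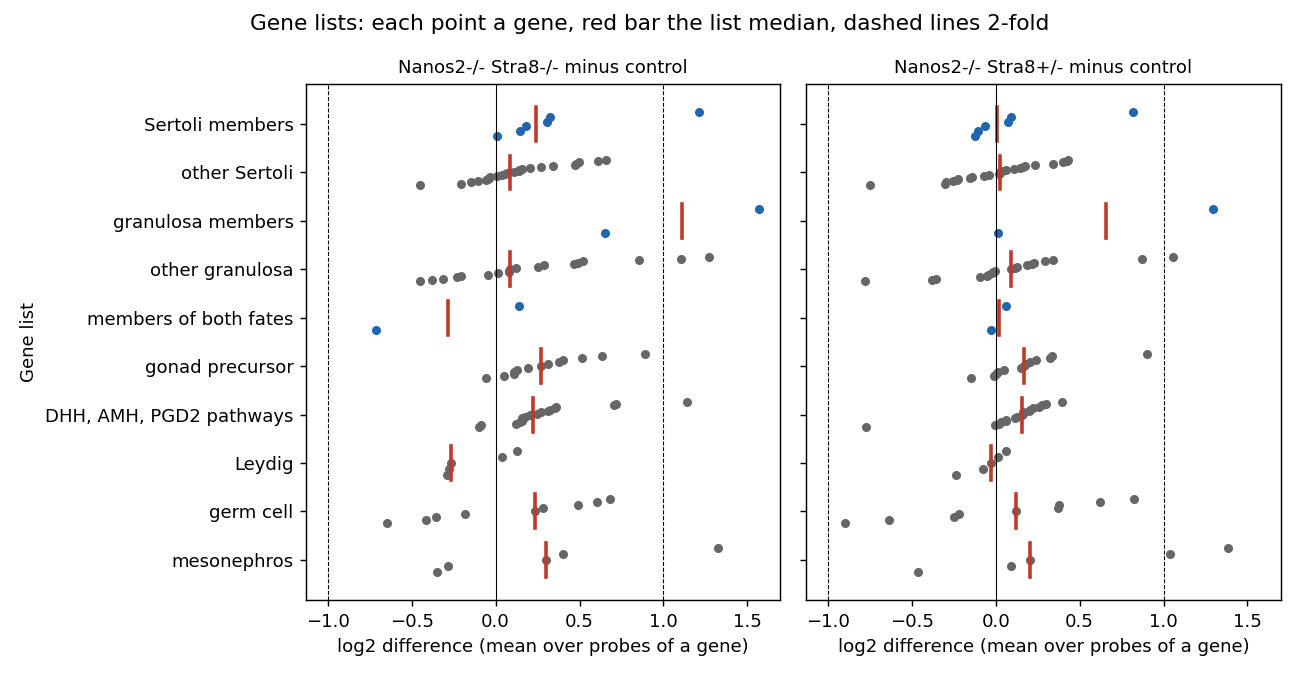
Log2 difference from the control of each gene (mean over its probes) by list, in Nanos2-/- Stra8-/- gonads (left) and Nanos2-/- Stra8+/- gonads (right), with list medians as red bars and 2-fold as dashed lines. By this mean the 24 other Sertoli genes stay inside 2-fold in both panels, with medians of 0.09 and 0.03.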

How the data were processed

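RNA of 3 male gonad samples at stage E14.5 was labelled with Cy3 and hybridised to Agilent arrays, per the labels' protocols. The submitters' processing notes name Agilent Feature Extraction 9.5. The deposited values are linear ratios, most of them near 1. The divisor of each probe, the scaling between arrays and the way replicates 1 and 2 were combined are not given in the sources used here. All values were above 0, and log2 was taken with no pseudocount.

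Of 41267 entries, 93 control spots were left out. The platform annotation gave 1 symbol for 32664 of the 41174 probes, several for 45 and none for 8465. Gene identifiers of 32524 probes matched a RefSeq table of GRCm38.p6, which changed 0 symbols.

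Each comparison is the log2 difference of 2 columns per probe. A difference counted at 2-fold, with 1.5-fold as a second size. The only error at hand is the SD between probes of a gene, which holds no variation between arrays or animals. The median SD was 0.12 for Nanos2-/- Stra8+/- minus control, 0.25 for Nanos2-/- Stra8-/- minus control and 0.20 for Nanos2-/- Stra8-/- minus Nanos2-/- Stra8+/-. The text names all 10 genes, Nanos2 and Stra8, up to 4 genes of each other list with the largest mean difference from the control, and the 3 genes nearest to Gng13. The genes and lists were chosen with earlier results of these data known. Endothelial, macrophage and erythroid markers had list medians between 0.04 and 0.22 in both comparisons with the control. By gene means 0 of them were at 2-fold, where 5.47% of all genes were with Nanos2 alone lost and 7.05% in Nanos2-/- Stra8-/- gonads. Of the 11 macrophage probes 1 passed 2-fold, a probe of Ptprc, at -1.46 and -2.00 in that order, where 5.6% and 8.99% of all probes passed. The other probes of Ptprc lay above 0 in both comparisons. Counting was tested on simulated data with known changes larger than 2-fold, which checks the counting step alone and not the differences found here. Python 3.11.15, pandas 2.3.3 and numpy 2.4.6 were used.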

Additional observations from a re-analysis of the deposited data

How the results depend on the processing

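No paired analysis was possible because each genotype has 1 column, and no replicate was left out for the same reason. Centring and quantile normalization kept counts of the 15 probes at 2-fold at 1, 3 and 1 for Nanos2 loss, combined loss and Stra8 loss. These are Nanos2-/- Stra8+/- minus control, Nanos2-/- Stra8-/- minus control and Nanos2-/- Stra8-/- minus Nanos2-/- Stra8+/-. Of all probes, 5.65%, 8.99% and 5.21% passed after centring and 5.54%, 7.95% and 5.95% after quantile normalization. The filter on low values and leaving out the low class (the last chosen after seeing the data) removed none of the 15 probes. Their counts could therefore not change under these 2 settings. Of the probes left, 5.53%, 9.75% and 5.38% passed with the filter and 6.24%, 10.5% and 6.07% without the low class. Raising values below the column median to it gave 0, 0 and 0, and 525, 683 and 245 of all probes, by construction since the low side of each difference is lifted. Gng13 then had log2 differences of 0.28 and 0.56 from the control in Nanos2 loss and combined loss, and Dmrt1 0.08 and 0.48. The first Nr5a1 probe had -0.08 in combined loss and -0.01 in Stra8 loss. The spread between probes became 0.058, 0.13 and 0.096. At 1.5-fold the counts were 2, 6 and 3 of the 15 probes and 5401, 9368 and 5931 of all probes.

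With 1 value per gene, fewer features are counted. The mean over probes gave 1069, 1377 and 600 of all genes, and the probe with the highest mean 1238, 1655 and 739. Of the 10 genes, 2 then passed in combined loss, against 3 of the 15 probes, and 0 in Stra8 loss under either choice, Nr5a1 no longer passing in both. In combined loss the highest probe gave a median of 0.49 for the 10 genes, because it takes the higher of probes that disagree. The share of called probes that were higher in combined loss was 51.1%, and 60.2% with gene means, 36.7% with raised values and 42.1% after centring. In Stra8 loss it was 46.8%, and 67.2%, 79.6% and 43.0%. In Nanos2 loss it was 44.8%, and 13.1% with raised values. The highest probe gave 59.5% in combined loss and 68.1% in Stra8 loss.

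The median of the 15 probes in Nanos2 loss was -0.02 after centring, against 0.04, a change of sign. In combined loss it was 0.10 after centring and 0.04 after quantile normalization, against 0.18, and in Stra8 loss 0.24 and 0.10, against 0.27. Quantile normalization gave Gng13 0.02 in Stra8 loss, against 0.27.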

Other observations

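Gng13 and Sox8 lie close together on mouse chromosome 17, with a single protein-coding gene, Lmf1, between them in the GRCm38.p6 annotation. Chosen after their values were seen, the 4 protein-coding genes on each side of Gng13 were read as well, of which 7, Sox8 included, were measured by 8 probes. Msln, the mesothelial surface protein mesothelin, had a ratio of 1.67 in Nanos2-/- Stra8-/- gonads, 0.982 in Nanos2-/- Stra8+/- gonads and 0.422 in control gonads. Its neighbour Mslnl had 1.63 in Nanos2-/- Stra8-/- gonads, 0.976 in Nanos2-/- Stra8+/- gonads and 0.594 in control gonads. Both lie on the far side of Gng13 from Sox8 and show the same order of genotypes as Gng13. Tekt4, Lmf1, Chtf18, Rpusd1 and the second Sox8 probe show that order too. Over all probes the Nanos2-/- Stra8-/- column was highest for 57.3% and the control lowest for 51.0%, and the share with both at once was not computed. Chtf18, next to Gng13, had log2 differences from the control of 0.63 in Nanos2-/- Stra8-/- gonads and 0.46 in Nanos2-/- Stra8+/- gonads, and Lmf1 had 0.44 and 0.12. Over the 8 probes the median was 0.52 in Nanos2-/- Stra8-/- gonads and 0.16 in Nanos2-/- Stra8+/- gonads, where all probes had 0.19 and 0.05. Of the 8 probes, 2 and 1 passed 2-fold, where 8.99% and 5.6% of all probes did.

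Among 8511 genes with 2 or more probes, those with a pair of mean log2 differences from the control nearest to that of Gng13 were Taf7l, Erich3 and Klf8, at Euclidean distances of 0.14, 0.15 and 0.18 over the 2 comparisons, which share the control. Taf7l, a germ cell form of a subunit of a general transcription factor, had probe log2 differences of 1.37 and 1.48 in Nanos2-/- Stra8+/- gonads compared with the control. Those of Erich3 disagreed, with log2 differences of 0.18 and 2.67.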
